A study of Mus musculus with 10 samples.

Results

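The 44 genes described here are interferon-stimulated genes, the set of antiviral and signalling genes that cells raise after type I interferon. They were taken by symbol from a list that was chosen with earlier results of these data known. All 44 were found among the 27179 genes of the count table of the series. The table gives RNA-seq counts of 5 cell populations, sorted from mammary tissue of C57BL/6 female mice that were adult and virgin. There are 2 macrophage populations, named ductal and stromal for where they lie, and 3 dendritic cell (DC) populations: CD11b-CD103+ (CD103+ DCs below), CD11b-CD103- (CD103- DCs) and CD11b+ (CD11b+ DCs). Each has 2 libraries, labelled biological replicates 1 and 2, and the labels name no treatment, infection or engineered allele for any group. The sources used here do not say whether a library is 1 mouse or a pool. All 44 genes had counts and all 44 passed the filter on low counts that left 15681 genes for testing.

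Type I interferons are secreted by cells that sense viral or other misplaced nucleic acids. They bind a receptor made of IFNAR1 and IFNAR2, whose kinases TYK2 and JAK1 act on STAT2, which joins IRF9 in ISGF3, a complex that binds interferon-stimulated response elements in promoters. The genes it turns on include IRF7, which amplifies the response, sensors of viral RNA and DNA, enzymes and restriction factors that block viral replication, and USP18, which shuts the receptor down. Resting tissues keep a low tonic level of this programme, and macrophages and dendritic cells are among its main users. Ductal macrophages lie within the mammary epithelium, stromal macrophages in the surrounding connective and fatty tissue, and both CD11b- populations resemble conventional type 1 dendritic cells.

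Library totals ran from 5636092 counts (ductal macrophages, replicate 1) to 23093742 (stromal macrophages, replicate 1). Levels are given in CPM, a gene's counts scaled to a common library total over the tested genes after adjustment by trimmed means (TMM), always replicate 1 before replicate 2. On that scale 3 counts equal 0.119 to 0.683 CPM. The stromal libraries stood apart in their mitochondrial share, 24.8% and 23.1% of counts against 0.631% to 6.29% in the other 8. The macrophage markers fixed for the check (10 genes, among them Adgre1, Csf1r and the C1q genes) summed to 25516 and 25174 CPM in ductal and 9992 and 7367 in stromal macrophages, 4608 and 4376 in CD11b+ DCs and at most 1832 in the CD11b- DCs. The type 1 dendritic cell markers (8 genes, among them Xcr1 and Clec9a) summed to 2553 to 3479 CPM in the 4 CD11b- libraries. The 6 stromal macrophage markers were also high in CD11b+ DCs: they summed to 20355 and 25267 CPM there, to 23033 and 15293 in stromal macrophages and to 56.3 and 81.7 in ductal macrophages. Flt3, a defining dendritic cell gene, stood at 16.8 and 18.1 CPM in CD11b+ DCs and 314 and 520.2 in CD103+ DCs. The type 2 dendritic cell markers (8 genes, among them Sirpa and Cd209a) were highest in CD11b+ DCs, where they summed to 2780 and 2176 CPM. Their sums were 1201 and 849 CPM in ductal macrophages, 1860 and 1374 in stromal macrophages, 101 and 74.7 in CD103+ DCs and 39.6 and 51.4 in CD103- DCs. The 6 dendritic cell markers summed to 1113.7 and 800.5 CPM in ductal macrophages, above the 455.2 and 269.99 in CD11b+ DCs. Their sums were 1495.4 and 2447.4 CPM in CD103+ DCs, 1346.3 and 1188.4 in CD103- DCs and 102.997 and 96.81 in stromal macrophages. The part of this order in the comparisons with the DC populations was not tested.

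Stromal macrophages carried the highest levels of most of these genes. The 44 genes took 0.882% and 0.977% of all counts in the stromal libraries and 0.236% and 0.198% in the ductal libraries. Their share was 0.394% and 0.340% in CD103+ DCs, 0.312% and 0.307% in CD103- DCs and 0.478% and 0.529% in CD11b+ DCs. On the log2(CPM + 0.5) scale their median level per library was 4.97 and 4.81 in ductal macrophages, 6.89 and 6.67 in stromal macrophages, 4.80 and 4.80 in CD103+ DCs, 4.52 and 4.89 in CD103- DCs and 5.80 and 5.49 in CD11b+ DCs. The median of all tested genes lay between 3.60 and 3.76 in every library. Both stromal libraries were above the other 8, the CD11b+ pair came next, and the ductal and both CD11b- pairs overlapped or lay close together. In bulk RNA of sorted cells, fewer cells that express a gene and less RNA of it per cell cannot be told apart.

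Of the 44 genes, 35 (79.5%) had their highest mean in stromal macrophages, where 27.8% of all tested genes did. Both stromal libraries lay above the other 8 for 31 of them (background 13.6% of genes), and 0 lay with both below the other 8 (background 12.0%). None had its lowest mean in stromal macrophages (24.9% of genes). The other 9 were highest in CD103+ DCs (5 genes, background 16.1%), ductal macrophages (2 genes, Bst2 and Lgals3bp, background 21.1%), CD103- DCs (Ifi35, background 16.5%) and CD11b+ DCs (Ifitm6, background 18.6%). Behind the stromal mean the next highest was CD11b+ DCs for 20 of the 35, CD103+ DCs for 6, CD103- DCs for 5 and ductal macrophages for 4. The shares of all tested genes with these orders were not computed. The lowest mean was in ductal macrophages for 21 genes (47.7%; 27.8% of all genes), in CD103- DCs for 12 (background 13%), in CD11b+ DCs for 7 (background 19.2%) and in CD103+ DCs for 4 (background 15.1%). For 15 genes both ductal libraries lay below the other 8 (background 9.88%), and for 2 above them (background 12.2%).

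**Figure D1:**
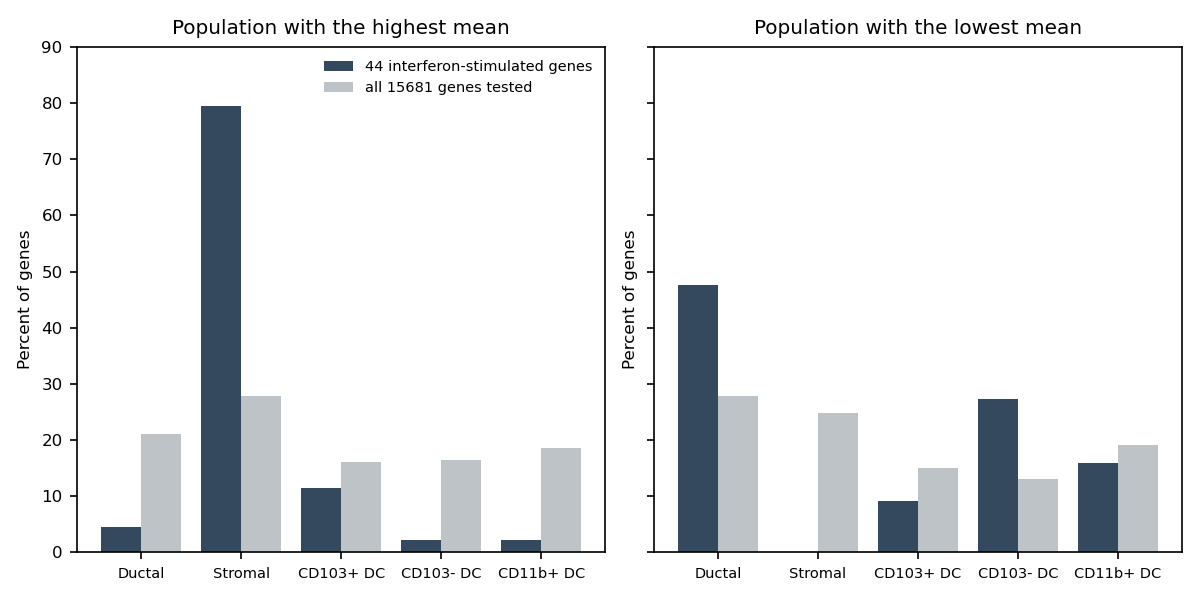
Share of genes (percent, axis from 0) whose mean CPM was highest (left) or lowest (right) in each of the 5 populations, for the 44 interferon-stimulated genes (dark bars) and all 15681 tested genes (grey bars). Stromal macrophages held the highest mean of 79.5% of the 44 genes and the lowest mean of none.

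**Figure D2:**
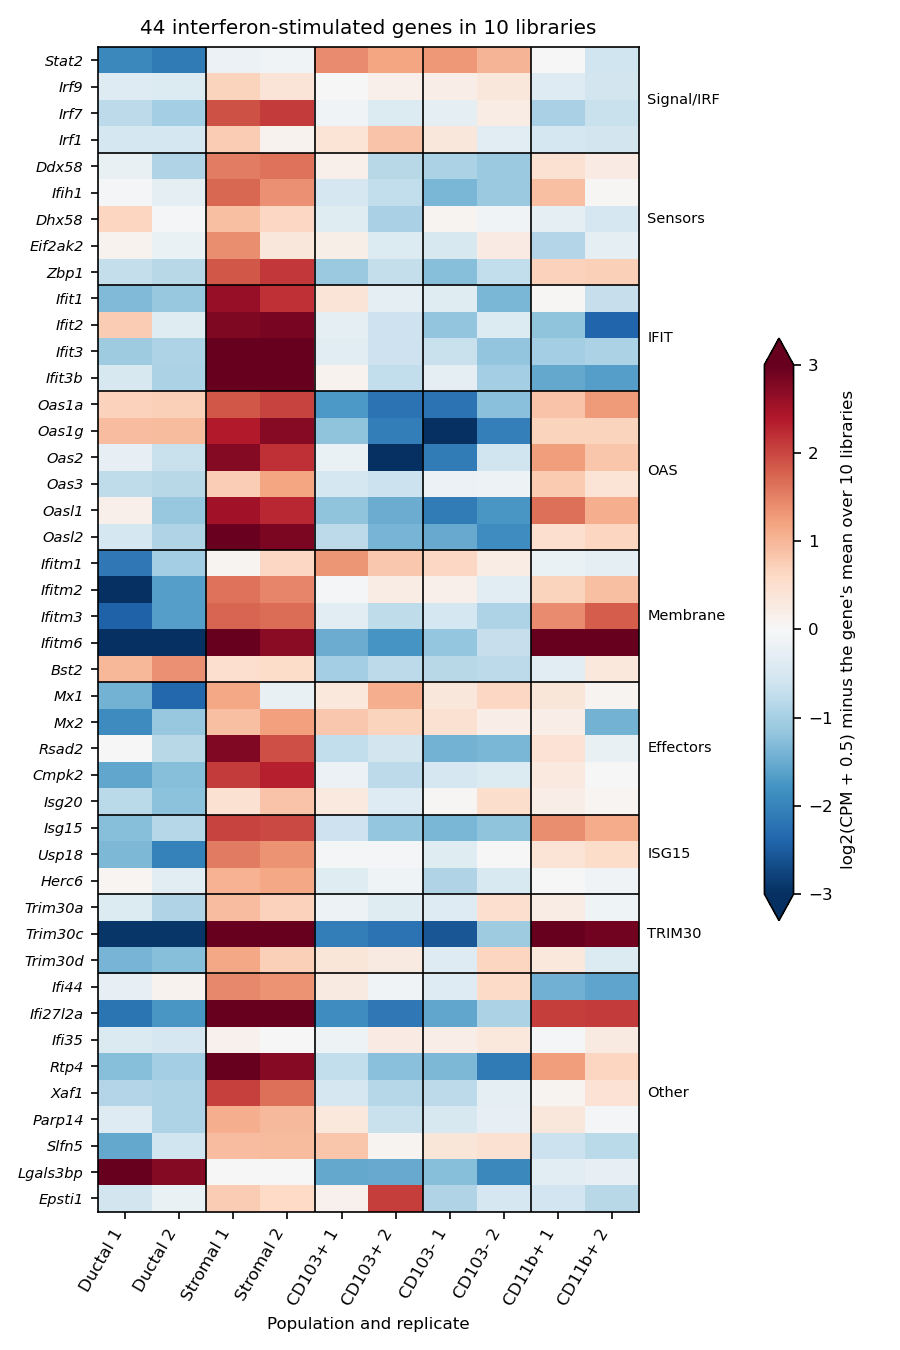
Each row is 1 of the 44 genes, grouped by role, and each column 1 library (replicates 1 and 2 of ductal macrophages, stromal macrophages, CD103+ DCs, CD103- DCs and CD11b+ DCs). Colour is log2(CPM + 0.5) minus the gene's mean over the 10 libraries, cut at 3 in either direction; the stromal columns are red in most rows, and the CD11b+ columns share the red of Ifitm6, Trim30c and Ifi27l2a.

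Levels of different genes can be compared per kilobase of gene model. In stromal macrophages Ifi27l2a, a small protein of mitochondrial and nuclear membranes, led with a mean of 3721 CPM per kilobase, followed by Ifitm3 (2650.1), Ifitm2 (987) and Isg15 (387). CD11b+ DCs were led by Ifitm3 (2508 CPM per kilobase) and Ifi27l2a (1778). The order was another in ductal macrophages, where Bst2 (469 CPM per kilobase) and Lgals3bp (356) came before Ifitm3 (203) and Ifi27l2a (107). Among the IFIT and RIG-I-like receptor genes, Ifit3 had 7.25 CPM per kilobase in ductal and 155 in stromal macrophages, and Ddx58 had 3.12 and 13.8.

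Ductal against stromal macrophages was the comparison with the most members called. Here and below a gene is called where the quasi-likelihood test of edgeR gives a p under 0.05 after Benjamini-Hochberg adjustment over all tested genes. The fold change is the fitted log2 difference with its standard error (SE), and all 10 libraries enter the fit. In ductal macrophages 38 of the 44 genes were lower (background 14.3% of genes lower), 1 was higher (background 16.3%) and 5 were not called. The median log2 fold change, ductal minus stromal, was -2.43 over the 44 genes and -0.10 over all tested genes. Both ductal libraries lay below both stromal libraries for 41 genes (34.6% of all genes) and above them for 2 (30.6% of all genes), Lgals3bp and Bst2. With each library left out in turn the count of lower members ran from 31 to 39, and 29 of the 38 were called in all 10 of these fits. The 9 others were Irf1, Irf9, Oas1a, Oas1g, Oas2, Ifitm1, Isg20, Trim30a and Ifi44, each lost in at least 1 of these fits. The fewest, 31, were called without ductal replicate 1. Where a library is left out its population has 1 library, assumed to vary like the others.

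**Figure D3:**
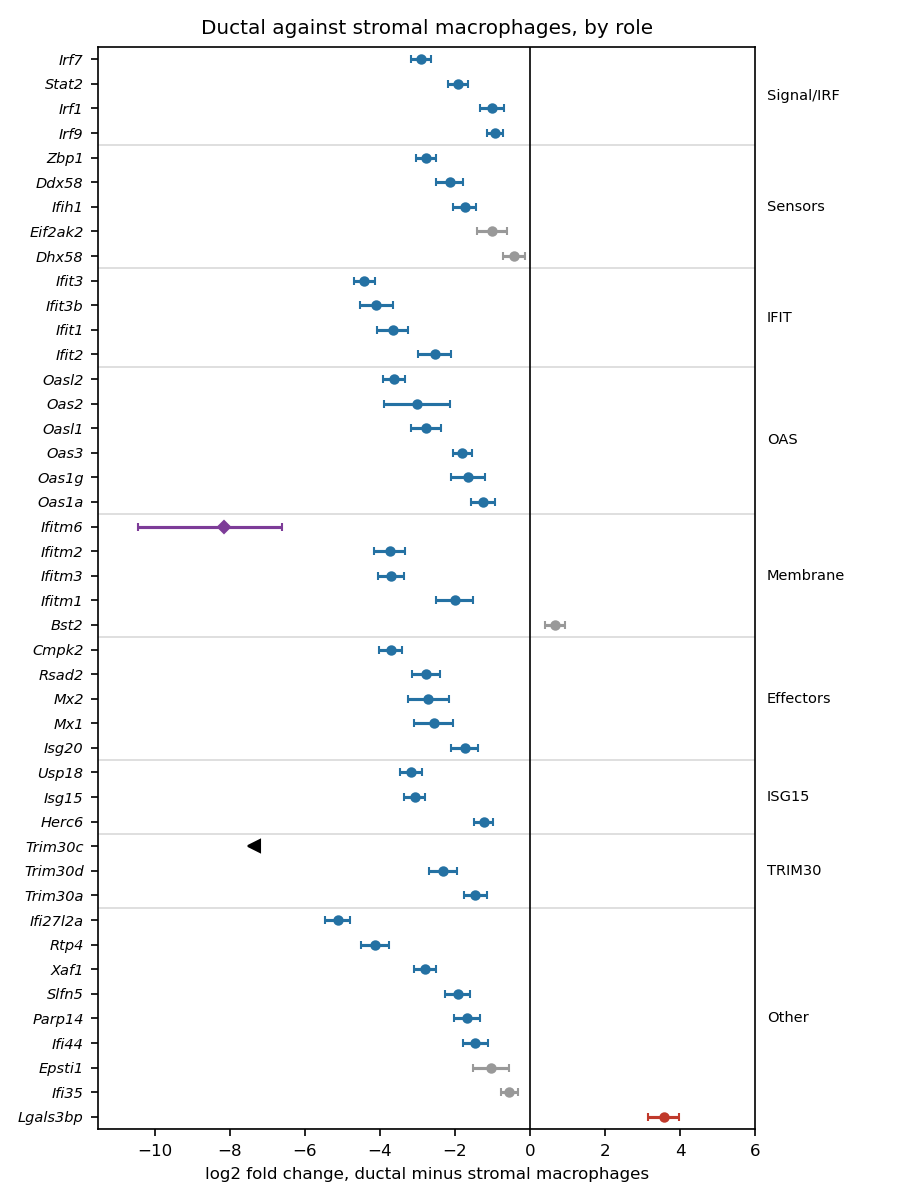
Fitted log2 fold change, ductal minus stromal macrophages, for the 44 genes grouped by role, with bars of 1 SE (blue: lower, called; red: higher, called; grey: not called). The triangle marks Trim30c, which had no ductal count, at its bound from 3 counts, and the diamond marks Ifitm6, which had 3 ductal counts, with its 95% counting interval; 38 of the 44 genes lie left of 0 and are called, and Lgals3bp alone is called to the right.

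Several of these promoters carry the core letters of the interferon-stimulated response element. RefSeq windows of 250 bases before the transcript start (GRCm38.p6) were found for 35 of the 44 genes, 41 windows in all. For 31 of the windows the bases after the start were found in a GENCODE transcript of the gene. Among the windows printed below, this did not hold for Ifit3, Ifit3b, Oas1a and Bst2, so their starts are less certain. All windows were searched on both strands for the letters GAAANNGAAA, with overlapping matches counted. A match stood in 14 of the 35 genes (40.0%), against 936 of 27025 genes with such a window (3.46%). At least 2 matches in 1 window were found for Bst2, Ifit1, Ifit3, Ifit3b, Isg15, Oas1a and Oas1g, and 1 match for Ifitm2, Oas3, Rsad2, Slfn5, Stat2, Trim30a and Trim30d. By role, matches were found in 3 of 4 IFIT genes and 3 of 5 OAS genes with a window, and in 0 of 3 nucleic acid sensors. The windows of genes the comparisons turn on are printed with their roles below, 5′ to 3′ in the direction of the gene, in lower case with matches in capitals. On the opposite strand a match reads TTTCNNTTTC. A match is a description of letters, not a measured binding site.

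The 4 signalling and IRF genes were all lower in ductal than in stromal macrophages, but their order among the 5 populations differed. Irf7, the transcription factor that amplifies interferon production, stood at 79.0 and 67.3 CPM in ductal macrophages, 514 and 582 in stromal macrophages, 128 and 103.4 in CD103+ DCs, 113 and 160.1 in CD103- DCs, and 68.8 and 85.3 in CD11b+ DCs. Both stromal libraries were far above the other 8, the 4 CD11b- libraries came next, and the ductal and CD11b+ libraries overlapped below them. The ductal minus stromal log2 fold change of Irf7 was -2.90 ± 0.27 (SE; edgeR adjusted p = 2.74e-05). Stromal Irf7 was higher than in each of the other 4 populations, the nearest being CD103- DCs at a log2 difference of 2.00 (edgeR adjusted p = 0.00121). Stat2, a transcription factor of ISGF3, had another order, with 19.4 and 17.0 CPM in ductal macrophages, 66.9 and 70.4 in stromal macrophages, 204 and 174 in CD103+ DCs, 189 and 154 in CD103- DCs, and 75.4 and 50.3 in CD11b+ DCs. It was highest in both CD11b- DC populations and lowest in ductal macrophages, and no ductal library overlapped any other. Stat2 was lower in ductal than in stromal macrophages (log2 fold change -1.92 ± 0.26, edgeR adjusted p = 3.47e-04). Against each of the other 4 populations the ductal level was lower too, and the smallest of the 4 differences was -1.79 (edgeR adjusted p = 0.00305). It was also the only one of the 44 genes called lower in stromal macrophages than in the mean of the 3 DC populations (-0.89 ± 0.21, edgeR adjusted p = 0.00721). Irf9, the DNA-binding partner in ISGF3, stood at 74.7 and 73.8 CPM in ductal, 157 and 129 in stromal macrophages and 75.9 and 67.3 in CD11b+ DCs. Irf1, which also answers interferon gamma, was highest in stromal replicate 1 and CD103+ DCs, with 185 and 186 CPM in ductal macrophages, 459 and 290.1 in stromal macrophages, and 358 and 487 in CD103+ DCs.

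Of the 5 sensors of foreign nucleic acid, 3 were lower in ductal than in stromal macrophages. Zbp1, which binds left-handed nucleic acid and can start cell death, stood at 33.5 and 30.5 CPM in ductal macrophages, 201 and 239 in stromal macrophages, 25.2 and 33.1 in CD103+ DCs, 22.3 and 32.8 in CD103- DCs, and 88.4 and 91.0 in CD11b+ DCs. Stromal libraries were highest and CD11b+ libraries second, with no overlap between these and the other 6. For Zbp1 the ductal minus stromal log2 fold change was -2.78 ± 0.27 (edgeR adjusted p = 3.21e-05). The difference of stromal macrophages from the nearest population, CD11b+ DCs, was 1.29 (edgeR adjusted p = 0.0126; 0.114 without CD11b+ replicate 1 and 0.1004 without CD11b+ replicate 2). Ddx58, which encodes the RNA helicase RIG-I, stood at 19.1 and 11.7 CPM in ductal and 66.1 and 70.0 in stromal macrophages, a log2 fold change of -2.15 ± 0.36 (edgeR adjusted p = 0.00130). Ifih1, which encodes the related helicase MDA5, had 36.2 and 31.4 CPM in ductal and 126 and 99.2 in stromal macrophages. Dhx58 and Eif2ak2, the helicase LGP2 and the RNA-activated kinase PKR, were not called between the macrophages. Dhx58 had 65.4 and 40.5 CPM in ductal and 77.8 and 63.8 in stromal macrophages. Eif2ak2 had 40.5 and 32.9 CPM in ductal and 100.02 and 47.7 in stromal macrophages, where replicate 2 lay close to the ductal range. Their log2 fold changes were -0.42 ± 0.30 (edgeR adjusted p = 0.305) and -1.01 ± 0.40 (edgeR adjusted p = 0.0776). Eif2ak2 was called lower by edgeR without stromal replicate 2 (adjusted p = 0.0153) and with no filter on low counts (0.0289).

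The IFIT genes encode related antiviral proteins, of which IFIT1 binds viral RNA that lacks host cap marks. The IFIT genes were the only role group with every member called higher in stromal macrophages than in all 4 others. They lie side by side on chromosome 19, from 34550550 to 34650009 (GRCm38). Ifit3 stood at 13.7 and 15.3 CPM in ductal macrophages, 295 and 325 in stromal macrophages, 23.3 and 18.8 in CD103+ DCs, 18.4 and 12.6 in CD103- DCs, and 14.3 and 14.9 in CD11b+ DCs. Stromal libraries were above all others by a wide margin, while the 8 others shared one range. Its ductal minus stromal log2 fold change was -4.42 ± 0.28 (edgeR adjusted p = 3.79e-06), and against the nearest population, CD103+ DCs, the stromal difference was 3.88 (edgeR adjusted p = 2.26e-05). Ifit3b, a near-identical neighbour, followed at 5.92 and 4.16 CPM in ductal and 81.2 and 89.8 in stromal macrophages (-4.09 ± 0.43, edgeR adjusted p = 5.37e-05), and reads of such a pair may have been split or dropped in counting. Ifit1 stood at 38.5 and 43.7 CPM in ductal macrophages, 594 and 445 in stromal macrophages, 127 and 79.3 in CD103+ DCs, 75.0 and 37.4 in CD103- DCs, and 99.0 and 60.1 in CD11b+ DCs. Its stromal call against every other population (edgeR adjusted p = 0.00515) was lost without CD103+ replicate 2 (0.0573). Ifit2 stood at 52.2 and 24.0 CPM in ductal macrophages, 217 and 224 in stromal macrophages, 25.4 and 19.9 in CD103+ DCs, 13.4 and 23.1 in CD103- DCs, and 13.1 and 5.57 in CD11b+ DCs. Outside the stromal libraries it was highest in ductal replicate 1, and it was lowest in CD11b+ DCs. The fold change of Ifit2 was -2.54 ± 0.44 between the macrophages (edgeR adjusted p = 0.00162) and 2.54 for stromal macrophages against the nearest population, ductal macrophages (edgeR adjusted p = 0.00709; 0.0697 without ductal replicate 2). The windows of the 3 IFIT genes with matches are chr19:34583279-34583528, plus strand for Ifit3, chr19:34607707-34607956, plus strand for Ifit3b, and chr19:34640639-34640888, plus strand for Ifit1, and each holds a pair of matches with the same letters in the same order.
Ifit3: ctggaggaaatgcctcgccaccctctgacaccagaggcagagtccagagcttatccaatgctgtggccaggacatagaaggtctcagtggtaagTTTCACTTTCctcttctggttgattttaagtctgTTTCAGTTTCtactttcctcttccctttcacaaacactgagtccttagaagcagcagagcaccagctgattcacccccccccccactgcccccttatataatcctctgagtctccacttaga
Ifit3b: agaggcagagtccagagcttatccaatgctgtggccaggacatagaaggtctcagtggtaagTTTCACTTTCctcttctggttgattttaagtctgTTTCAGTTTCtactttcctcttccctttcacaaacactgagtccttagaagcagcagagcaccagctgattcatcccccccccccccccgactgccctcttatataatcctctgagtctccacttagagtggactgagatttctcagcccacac
Ifit1: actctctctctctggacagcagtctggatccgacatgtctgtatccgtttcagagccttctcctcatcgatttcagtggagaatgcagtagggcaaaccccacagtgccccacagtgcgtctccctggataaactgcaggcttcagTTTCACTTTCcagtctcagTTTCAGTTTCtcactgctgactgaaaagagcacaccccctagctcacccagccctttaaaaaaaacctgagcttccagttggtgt

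The OAS genes make or resemble the enzymes that activate RNase L, and all 6 lie on chromosome 5. Every one of the 6 was lower in ductal than in stromal macrophages, and every one was higher in CD11b+ DCs than in both CD11b- populations together. Of the latter calls, that of Oas2 was lost under DESeq2 (adjusted p = 0.0583) and in 5 of the 10 edgeR fits that left out a library (up to 0.1996 without CD11b+ replicate 1), and that of Oas3 without CD11b+ replicate 1 (0.0997). Oasl2 stood at 32.3 and 24.8 CPM in ductal macrophages, 371 and 336 in stromal macrophages, 26.8 and 17.5 in CD103+ DCs, 16.1 and 12.6 in CD103- DCs, and 66.6 and 73.4 in CD11b+ DCs. Stromal libraries were highest, CD11b+ libraries second, and the CD11b- libraries lowest, with ductal replicate 2 inside the CD103+ range. The log2 fold change of Oasl2, ductal minus stromal, was -3.63 ± 0.29 (edgeR adjusted p = 1.21e-05), and it was 1.97 ± 0.22 for CD11b+ against CD11b- DCs (edgeR adjusted p = 1.07e-04). Oas1g stood at 14.4 and 14.6 CPM in ductal macrophages, 39.9 and 51.3 in stromal macrophages, 2.90 and 1.35 in CD103+ DCs, 0.483 and 1.40 in CD103- DCs, and 12.0 and 12.0 in CD11b+ DCs. The ductal libraries were above all 6 DC libraries, and Oas1g was higher in ductal macrophages than in the mean of the 3 DC populations (2.30 ± 0.35, edgeR adjusted p = 5.51e-04). Oas1a, a close paralog of Oas1g, had 56.9 and 57.3 CPM in ductal, 128 and 144 in stromal macrophages and 63.3 and 85.5 in CD11b+ DCs, against 7.11 to 14.4 in the CD11b- DCs. The split of reads between these paralogs is uncertain. Oas2 was lower in ductal macrophages (9.57 and 6.998 CPM) than in stromal ones (80.0 and 53.8; log2 fold change -3.02 ± 0.88, edgeR adjusted p = 0.0248), but its CD103+ libraries were far apart at 10.004 and 0.792 CPM. That call had an adjusted p of 0.120 without ductal replicate 1, 0.0628 without stromal replicate 1 and 0.142 without ductal replicate 2. The window of Oas1a (chr5:120907526-120907775, minus strand) has 2 overlapping matches at its 3′ end, near the transcript start.
Oas1a: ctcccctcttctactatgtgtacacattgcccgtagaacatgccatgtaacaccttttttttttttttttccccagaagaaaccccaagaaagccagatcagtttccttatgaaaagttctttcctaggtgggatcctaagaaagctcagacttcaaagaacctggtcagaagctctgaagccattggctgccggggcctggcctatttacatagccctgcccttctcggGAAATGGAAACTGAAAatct

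Of the 5 membrane restriction factors, 4 were lower in ductal than in stromal macrophages, and Bst2 was not called. The IFITM proteins block virus entry at endosomal membranes, and their 4 genes lie together on chromosome 7, from 140954837 to 141016892. Ifitm3 stood at 97.7 and 166 CPM in ductal macrophages, 1760.5 and 1674 in stromal macrophages, 415 and 308 in CD103+ DCs, 364 and 277 in CD103- DCs, and 1394 and 1857 in CD11b+ DCs. Ifitm2 stood at 25.3 and 67.1 CPM in ductal macrophages, 653 and 585 in stromal macrophages, 208 and 246 in CD103+ DCs, 235 and 171 in CD103- DCs, and 335 and 399 in CD11b+ DCs. For both genes the ductal libraries were the lowest of the 10 and the stromal and CD11b+ libraries the highest. Ifitm2 was lower in ductal macrophages than in stromal ones (-3.74 ± 0.42, edgeR adjusted p = 8.72e-05). Against every other population the smallest ductal difference was -2.13 (edgeR adjusted p = 0.0118; 0.0791 without ductal replicate 1, 0.0529 without CD103- replicate 1). Ifitm6 stood at 0.228 and 0.378 CPM in ductal macrophages, 107 and 69.7 in stromal macrophages, 3.33 and 2.65 in CD103+ DCs, 4.28 and 6.20 in CD103- DCs, and 109 and 98.6 in CD11b+ DCs. Both ductal libraries together held 3 counts of it, and the stromal and CD11b+ libraries overlapped. The stromal to ductal ratio of Ifitm6 was 286 (95% counting interval 97.8 to 1388) and the CD11b+ to ductal ratio 342 (117 to 1658); the intervals cover counting error only. Ifitm6 was called lower in ductal macrophages than in all 4 others (edgeR adjusted p = 0.00888; 0.132 without ductal replicate 1 and 0.0795 without ductal replicate 2). Bst2, the tetherin that holds budding virions at the cell surface, went the other way, with 316 and 405 CPM in ductal macrophages, 223 and 231 in stromal macrophages, 77.0 and 90.8 in CD103+ DCs, 88.3 and 91.5 in CD103- DCs, and 126 and 195 in CD11b+ DCs. Its ductal libraries were the highest, and all CD11b- libraries lay at or under 91.5 CPM. Between the macrophages Bst2 was not called (0.67 ± 0.26, edgeR adjusted p = 0.0724; DESeq2 called it higher at an adjusted p of 0.0293). It was higher in ductal macrophages than in the DC mean (1.76 ± 0.19, edgeR adjusted p = 5.78e-05). The window of Bst2 (chr8:71537473-71537722, minus strand) holds 2 overlapping matches, and that of Ifitm6 (chr7:141016893-141017142, minus strand) holds none.
Bst2: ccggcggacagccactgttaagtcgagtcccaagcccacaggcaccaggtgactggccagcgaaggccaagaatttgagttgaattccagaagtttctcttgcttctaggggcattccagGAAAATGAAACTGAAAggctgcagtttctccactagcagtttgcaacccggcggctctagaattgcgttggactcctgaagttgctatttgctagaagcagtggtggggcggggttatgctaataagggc
Ifitm6: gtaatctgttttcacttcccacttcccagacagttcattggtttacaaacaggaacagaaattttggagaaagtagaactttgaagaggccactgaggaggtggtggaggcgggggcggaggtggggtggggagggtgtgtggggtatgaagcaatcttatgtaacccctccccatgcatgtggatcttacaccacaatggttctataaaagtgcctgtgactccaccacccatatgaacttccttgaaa

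Among the antiviral effectors, the neighbours Rsad2 and Cmpk2 on chromosome 12 were both highest in stromal macrophages. Rsad2 encodes viperin, which makes a chain-terminating nucleotide, and stood at 61.5 and 33.9 CPM in ductal macrophages, 418 and 235 in stromal macrophages, 36.0 and 41.6 in CD103+ DCs, 22.3 and 23.2 in CD103- DCs, and 82.3 and 52.1 in CD11b+ DCs. Cmpk2, a nucleotide kinase that supplies its substrate, stood at 6.83 and 8.32 CPM in ductal macrophages, 91.7 and 107 in stromal macrophages, 18.5 and 12.0 in CD103+ DCs, 14.8 and 15.6 in CD103- DCs, and 25.9 and 21.0 in CD11b+ DCs. For each gene both stromal libraries lay above the other 8, and the ductal libraries were the lowest pair only for Cmpk2. Ductal minus stromal log2 fold changes were -2.78 ± 0.38 for Rsad2 (edgeR adjusted p = 3.00e-04) and -3.71 ± 0.31 for Cmpk2 (edgeR adjusted p = 1.47e-05). Mx1 and Mx2 encode dynamin-like antiviral GTPases and are listed as transcribed pseudogenes in the RefSeq annotation of this mouse genome. Mx1 stood at 7.74 and 3.78 CPM in ductal macrophages, 49.0 and 18.4 in stromal macrophages, 26.6 and 46.4 in CD103+ DCs, 27.4 and 33.4 in CD103- DCs, and 27.9 and 22.6 in CD11b+ DCs. Both ductal libraries were below the other 8, and stromal replicate 1 was above and stromal replicate 2 below all 6 DC libraries. Mx1 was lower in ductal than in stromal macrophages (-2.56 ± 0.52, edgeR adjusted p = 0.00379). Its call against every other population (-2.15, edgeR adjusted p = 0.0469) held in 1 of the 10 fits that left out a library, with an adjusted p of up to 0.349 without ductal replicate 2. Mx2 had 2.05 and 3.78 CPM in ductal and 17.1 and 21.7 in stromal macrophages, and Isg20, an exonuclease of single-stranded RNA, had 8.66 and 6.24 CPM in ductal and 21.3 and 28.5 in stromal macrophages.

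The 3 genes of the ubiquitin-like ISG15 system were all lower in ductal than in stromal macrophages, and Isg15 alone of them was called higher in CD11b+ than in CD11b- DCs by edgeR (DESeq2 also called Usp18, adjusted p = 0.0460). Isg15, which is joined to target proteins, stood at 29.6 and 39.5 CPM in ductal macrophages, 297 and 288 in stromal macrophages, 47.0 and 32.2 in CD103+ DCs, 27.5 and 30.9 in CD103- DCs, and 192 and 157 in CD11b+ DCs. Stromal libraries were highest and CD11b+ libraries second, with the other 6 in one low range. Its log2 fold change was -3.08 ± 0.28 for ductal minus stromal macrophages (edgeR adjusted p = 2.19e-05) and 2.36 ± 0.21 for CD11b+ against CD11b- DCs (edgeR adjusted p = 2.34e-05). Between stromal macrophages and CD11b+ DCs the difference of 0.74 ± 0.25 was not called (edgeR adjusted p = 0.0511), but it was called by DESeq2 (0.0378) and by edgeR without mitochondrial genes (0.0460) or without CD103+ replicate 1 (0.0452) or 2 (0.0463). Usp18, the protease that removes ISG15 and blocks the interferon receptor, stood at 11.2 and 6.81 CPM in ductal macrophages, 86.6 and 75.0 in stromal macrophages, 27.8 and 27.8 in CD103+ DCs, 22.6 and 28.9 in CD103- DCs, and 39.2 and 42.9 in CD11b+ DCs. Ductal libraries were the lowest of the 10, and Usp18 was lower there than in stromal macrophages (-3.18 ± 0.30, edgeR adjusted p = 2.62e-05). It was also lower than in all 4 others (-1.53 at the nearest, edgeR adjusted p = 0.0124; 0.130 without ductal replicate 2, 0.0642 without CD103- replicate 2). Herc6, the mouse ligase for ISG15, had 39.9 and 30.5 CPM in ductal and 79.3 and 85.8 in stromal macrophages. The Isg15 window (chr4:156200819-156201068, minus strand) has 3 overlapping matches, the most of any member.
Isg15: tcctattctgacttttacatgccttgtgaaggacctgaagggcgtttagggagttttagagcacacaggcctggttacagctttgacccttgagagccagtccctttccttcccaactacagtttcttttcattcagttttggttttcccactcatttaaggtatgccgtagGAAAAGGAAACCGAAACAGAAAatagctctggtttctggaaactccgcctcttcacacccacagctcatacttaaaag

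The TRIM30 genes, a mouse cluster on chromosome 7 whose best known member dampens Toll-like receptor signalling, differed in their range. Trim30c had no count in either ductal library and stood at 51.4 and 50.3 CPM in stromal macrophages, 0.397 and 0.317 in CD103+ DCs, 0.138 and 1.31 in CD103- DCs, and 39.1 and 27.8 in CD11b+ DCs. Against a floor of 3 counts over both ductal libraries it was at least 164-fold higher in stromal macrophages and at least 116-fold higher in CD11b+ DCs. The stromal and CD11b+ libraries did not overlap, and the fitted difference between them was 0.60 ± 0.51 (edgeR adjusted p = 0.417). Trim30d stood at 14.8 and 15.9 CPM in ductal and 89.0 and 64.7 in stromal macrophages (-2.32 ± 0.38, edgeR adjusted p = 0.00103), with 29.6 to 61.7 CPM in the DCs. Trim30a had 110.0 and 78.7 CPM in ductal and 280.0 and 237 in stromal macrophages. These genes are close paralogs, so the assignment of reads among them is uncertain.

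The remaining 9 members include Ifi27l2a, with the highest stromal level per kilobase, and Lgals3bp, the single member called higher in ductal macrophages. Ifi27l2a stood at 41.7 and 57.3 CPM in ductal macrophages, 1793 and 1653 in stromal macrophages, 53.2 and 43.1 in CD103+ DCs, 65.5 and 99.9 in CD103- DCs, and 814 and 833 in CD11b+ DCs. Stromal libraries were highest and CD11b+ libraries next, and the other 6 were at or under 99.9 CPM. Its ductal minus stromal log2 fold change was -5.12 ± 0.34 (edgeR adjusted p = 4.16e-06), and its CD11b+ minus CD11b- change 3.71 ± 0.24 (edgeR adjusted p = 2.50e-06). Rtp4, a chaperone of receptors, stood at 14.4 and 17.4 CPM in ductal macrophages, 313 and 241 in stromal macrophages, 21.4 and 14.7 in CD103+ DCs, 13.8 and 7.87 in CD103- DCs, and 86.3 and 56.0 in CD11b+ DCs. It was lower in ductal than in stromal macrophages by the same test (-4.12 ± 0.37, edgeR adjusted p = 2.28e-05). Its stromal difference from the nearest population, CD11b+ DCs, was called at 1.96 (edgeR adjusted p = 0.00599; 0.0774 without CD11b+ replicate 2). Ifi44 stood at 17.5 and 22.5 CPM in ductal macrophages, 56.8 and 53.2 in stromal macrophages, 25.2 and 19.3 in CD103+ DCs, 15.9 and 30.9 in CD103- DCs, and 7.36 and 6.64 in CD11b+ DCs. Its stromal libraries were highest and its CD11b+ libraries lowest, and the ductal minus stromal change was -1.46 ± 0.34 (edgeR adjusted p = 0.00782; 0.0804 without ductal replicate 1). Lgals3bp, a secreted glycoprotein that binds galectins, was the exception among the 44, with 1105 and 437 CPM in ductal macrophages, 65.3 and 65.5 in stromal macrophages, 21.8 and 22.3 in CD103+ DCs, 26.4 and 16.5 in CD103- DCs, and 51.7 and 54.2 in CD11b+ DCs. Both ductal libraries were far above the other 8, although replicate 1 lay well above replicate 2. Lgals3bp was higher in ductal than in stromal macrophages (3.56 ± 0.41, edgeR adjusted p = 1.05e-04), and higher than in each other population (edgeR adjusted p = 8.56e-04). Its window (chr11:118401960-118402209, minus strand) has no match.
Lgals3bp: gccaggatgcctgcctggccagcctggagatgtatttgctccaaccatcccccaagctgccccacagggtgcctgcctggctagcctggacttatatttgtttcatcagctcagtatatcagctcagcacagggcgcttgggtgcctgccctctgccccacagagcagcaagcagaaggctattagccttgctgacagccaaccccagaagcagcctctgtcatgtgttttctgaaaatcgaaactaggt

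Ifi35 and Epsti1, chosen here because they were the other members not called between the macrophages, had log2 fold changes of -0.55 ± 0.23 (edgeR adjusted p = 0.0892) and -1.04 ± 0.48 (edgeR adjusted p = 0.123). Epsti1 stood at 72.7 and 92.1 CPM in ductal macrophages, 179 and 160.4 in stromal macrophages, 115 and 447 in CD103+ DCs, 56.4 and 75.0 in CD103- DCs, and 70.9 and 59.2 in CD11b+ DCs. CD103+ replicate 2 stood apart from the other 9 libraries. With only 1 CD103+ library in the fit, the ductal minus stromal change of Epsti1 was called lower (edgeR adjusted p = 0.0120 without CD103+ replicate 1 and 0.0122 without replicate 2), and likewise with no filter on low counts (0.0378). Ifi35 was nearly even, from 70.7 CPM in ductal replicate 2 to 126 in CD103- replicate 2. Xaf1, Parp14 and Slfn5 were lower in ductal macrophages like most members. Xaf1, which promotes cell death, had 17.1 and 16.5 CPM in ductal and 132 and 101 in stromal macrophages. Parp14, an ADP-ribosyltransferase, had 32.6 and 22.1 CPM in ductal and 91.1 and 84.7 in stromal macrophages, and Slfn5, a member of the Schlafen family, had 27.3 and 53.0 CPM in ductal and 153 and 155 in stromal macrophages.

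**Figure D4:**
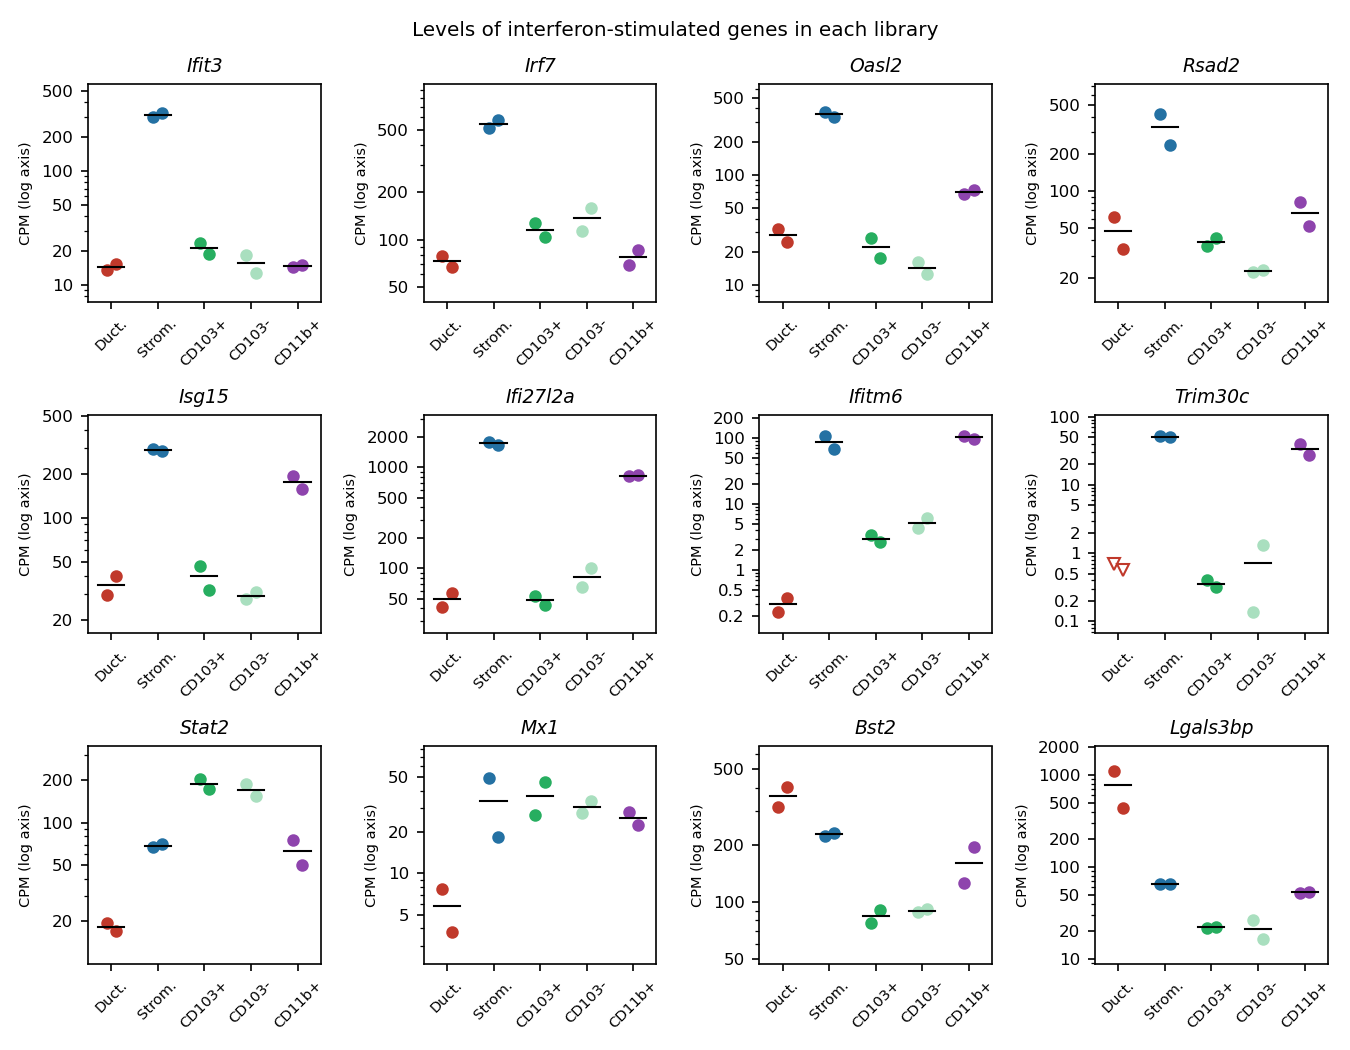
CPM (log axis) of 12 of the 44 genes in each library of ductal macrophages (Duct.), stromal macrophages (Strom.), CD103+ DCs, CD103- DCs and CD11b+ DCs; points are replicates 1 (left) and 2 (right), lines are means of 2. Open triangles mark libraries with no count, drawn at the CPM of 3 counts; the stromal points are highest for Ifit3, Irf7, Oasl2, Rsad2, Isg15, Ifi27l2a and Trim30c, and the ductal points are highest for Bst2 and Lgals3bp.

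Measured against all other populations at once, 12 of the 44 genes were higher in stromal macrophages (background 1.99%) and 0 were lower (background 2.72%; 23 members had an unadjusted p under 0.05 in either direction, and DESeq2 called 18 higher and 0 lower). The 12 were Irf7, Zbp1, Ifit1, Ifit2, Ifit3, Ifit3b, Oasl2, Rsad2, Cmpk2, Herc6, Rtp4 and Xaf1, with 8 to 14 called when a library was left out. Irf7, Ifit3, Ifit3b, Oasl2 and Cmpk2 were called in all 10 of those fits; Rsad2 was lost without CD11b+ replicate 2 (0.0566), Xaf1 without CD11b+ replicate 1 (0.0818) and Herc6 in 6 fits (up to 0.162, without ductal replicate 2). Against all 4 others, 5 genes were lower in ductal macrophages (background 1.18%), namely Stat2, Ifitm2, Ifitm6, Mx1 and Usp18, and 1, Lgals3bp, was higher (background 2.53%). DESeq2 and edgeR with no filter each called 7 lower, adding Ifitm3 and Trim30d. Without either ductal library the 5 fell to 2, and without CD103- replicate 2 to 3; Stat2 was called in all 10 fits.

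Set against the DCs, stromal macrophages were high in most members and ductal macrophages low in some. Stromal macrophages were higher than the mean of the 3 DC populations in 36 of the 44 genes (background 20.3%) and lower in 1, Stat2 (background 18.2%), with a median log2 difference of 1.71 over the members and 0.03 over all genes. Ductal macrophages were lower than the DC mean in 17 (background 11.6%). They were higher in 6 (13.6%), a share near the background of 15.0%: Dhx58, Ifit2, Oas1a, Oas1g, Bst2 and Lgals3bp. The median log2 difference was -0.57 over the members and -0.09 over all genes. The mean weights the 3 DC populations equally, and both CD11b- populations are among them. Dhx58, Oas1a and Oas1g were not called higher than CD11b+ DCs alone. The Oas1a mean was higher in CD11b+ DCs (74.4 CPM) than in ductal macrophages (57.1 CPM). Leaving out ductal replicate 1 left 7 of the lower calls and leaving out ductal replicate 2 left 10, and the Ifit2 call (edgeR adjusted p = 0.0181) was lost without ductal replicate 1 (0.448). Dhx58 was called higher at an edgeR adjusted p of 0.0484 and in 3 of the 10 fits with a library left out, with up to 0.595 without ductal replicate 1. Both comparisons share the same DC libraries, so their values are set side by side and were not compared with each other.

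Between CD103+ and CD103- DCs no member passed the test. None of the 44 was called in either direction by edgeR, where 0.0319% of all genes were higher and 0.0% lower in CD103+ DCs, although 8 members had an unadjusted p under 0.05. DESeq2 called 1 member higher, Epsti1 (adjusted p = 0.00204), which was also called by edgeR with no filter on low counts (0.00264) and without CD103+ replicate 1 (0.00836). The Epsti1 difference of 2.097 (SE 0.49) moved with CD103+ replicate 2, whose level was 447 CPM against 115 in replicate 1. The median log2 difference was 0.14 over the members and -0.02 over all genes. CD103- replicate 2 held B cell markers at 280.3 CPM summed over 5 genes, against 34.5 in replicate 1; their part in these values was not tested.

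Against the CD11b- DCs, CD11b+ DCs were higher in 19 of the 44 genes (43.2%, background 14.0%). They were lower in 7 (15.9%), a share near the background of 11.0%. The median log2 difference was 0.51 over the members and -0.07 over all genes. The higher set held all 6 OAS genes, the sensors Ddx58, Ifih1 and Zbp1, and Ifitm3, Ifitm6, Bst2, Rsad2, Isg15, Trim30c, Ifi27l2a, Rtp4, Xaf1 and Lgals3bp. Of these 19 calls, 12 held in all 10 fits that left out a library; Oas2 was lost in 5 fits, Ddx58 in 4, Xaf1 in 3, Lgals3bp in 2, and Oas3, Bst2 and Rsad2 in 1 each. The count fell to 13 without CD11b+ replicate 1 and 14 without CD11b+ replicate 2. The lower set was Stat2, Irf9, Irf7, Irf1, Ifit3b, Ifi44 and Slfn5. Of its 4 signalling and IRF genes, Irf1 and Irf7 were called in 4 of those 10 fits and Irf9 in 3. Stat2 fell by 1.51 on the log2 scale (edgeR adjusted p = 8.32e-04) and Ifi44 by 1.70 (edgeR adjusted p = 0.00291), and both were called in all 10 fits that left out a library. The 7 lower calls became 4 without ductal replicate 1 or 2, 3 without CD11b+ replicate 1 and 2 without CD11b+ replicate 2, and Irf7 (edgeR adjusted p = 0.0419) reached 0.300 without CD11b+ replicate 1. In 2 comparisons added after the data were seen, stromal macrophages were higher than CD11b+ DCs in 24 genes (background 11.6%) and lower in 0 (background 14.5%; DESeq2 also called 0 lower, and 31 members had an unadjusted p under 0.05 in either direction). Ductal macrophages were lower than CD11b+ DCs in 18 (background 11.4%) and higher in 4 (background 11.9%), namely Ifit2, Bst2, Ifi44 and Lgals3bp. The 24 became 13 without CD11b+ replicate 2, and the 4 became 2 without either CD11b+ library or without ductal replicate 2. The 20 genes not called between stromal macrophages and CD11b+ DCs included all 5 membrane restriction genes and 4 of the 6 OAS genes, among them Ifitm3 (0.08 ± 0.32, edgeR adjusted p = 0.882) and Ifitm6 (-0.23 ± 0.27, edgeR adjusted p = 0.570), a result that does not show equal levels. Of the 4 OAS genes, Oasl1 was called by DESeq2 (adjusted p = 0.0455), with no filter (0.0269) and without either ductal library, and Oas1a with no filter (0.0377) and without either CD103- library. CD11b+ DCs and stromal macrophages also shared the stromal macrophage markers named above, and the 8 monocyte markers were highest in CD11b+ DCs (4001 and 3328 CPM against at most 1335 elsewhere); their part in the shared levels was not tested.

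The genes upstream of the response differed in their order among the populations. Of 21 interferon genes listed, only Ifnb1 and Ifnk passed the filter on low counts. Ifnb1, the interferon beta gene, stood at 7.29 and 0.946 CPM in ductal macrophages, 18.8 and 8.77 in stromal macrophages, 0.0397 and 0.277 in CD103+ DCs, and 15.3 and 7.001 in CD11b+ DCs, with no count in CD103- DCs. Stromal and CD11b+ libraries overlapped, ductal replicate 1 lay just inside the CD11b+ range and replicate 2 far below it, and the ductal minus stromal difference was not called (-1.77 ± 0.88, edgeR adjusted p = 0.156). Against a floor of 3 counts over both CD103- libraries, Ifnb1 was at least 169-fold higher in stromal macrophages and at least 158-fold higher in CD11b+ DCs. No interferon alpha gene exceeded 1.26 CPM in any library, a level reached by Ifna1 in CD11b+ replicate 2. Ifnar1, the receptor chain that recruits TYK2, was lowest where the response genes were highest, with 435 and 329 CPM in ductal macrophages, 40.7 and 51.2 in stromal macrophages, 168 and 194 in CD103+ DCs, 193 and 153 in CD103- DCs, and 133 and 114 in CD11b+ DCs. Ductal libraries were highest and stromal libraries lowest, with no overlap; the ductal minus stromal change was 3.05 ± 0.27 (edgeR adjusted p = 1.92e-05). Stromal Ifnar1 was lower than in each other population (-1.42 at the nearest, edgeR adjusted p = 0.00772; 0.0683 without CD11b+ replicate 1). Ifnar2 stood at 319 and 299.8 CPM in ductal and 295 and 199 in stromal macrophages, above all DC libraries.

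The kinase gene Tyk2 stood at 99.5 and 80.8 CPM in ductal macrophages, 25.8 and 25.1 in stromal macrophages, 181 and 222 in CD103+ DCs, 262 and 191 in CD103- DCs, and 132 and 125 in CD11b+ DCs. Both stromal libraries were the lowest of the 10, and stromal macrophages were lower in Tyk2 than every other population (-1.82 at the nearest, edgeR adjusted p = 0.00154). Jak2, which serves the interferon gamma receptor, was likewise lower there than in all 4 others (24.2 and 30.8 CPM; edgeR adjusted p = 0.00311). Jak1 stood at 346 and 244 CPM in ductal and 438 and 323 in stromal macrophages and was not called between them (-0.37 ± 0.27, edgeR adjusted p = 0.335). Of the 9 receptor and kinase genes on the list, 5 were higher in ductal than in stromal macrophages (Ifnar1, Tyk2, Jak2, Ifngr1 and Ifngr2) and 4 were not called; over all tested genes 16.3% were higher and 14.3% lower. The 20 genes that sense nucleic acids or lead to interferon production had 10 higher (background 16.3%), 2 lower (background 14.3%) and 8 not called in ductal macrophages. Tlr13, an endosomal sensor of bacterial RNA, had 502 and 387 CPM in ductal and 24.6 and 20.4 in stromal macrophages. Unc93b1, the chaperone of endosomal Toll-like receptors, had 1879.9 and 1854 CPM in ductal and 555 and 404 in stromal macrophages. Traf3, an adaptor toward interferon production, had 143 and 111 CPM in ductal and 10.4 and 20.3 in stromal macrophages. The 2 lower genes, Tlr4 (-0.96 ± 0.29) and Ikbke (-1.89 ± 0.59), were each lost without ductal replicate 2 (edgeR adjusted p = 0.184 and 0.177) and without stromal replicate 1, and Ikbke also without CD11b+ replicate 2. Of 11 genes that restrain the pathway, 2 were higher in ductal macrophages (Irf2bp2 and Nlrc5), a share near the background of 16.3%, and 9 were not called. Socs1, an inhibitor of the JAK kinases, was low throughout, from 8.20 and 6.43 CPM in ductal macrophages to 29.4 and 20.8 in CD11b+ DCs.

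**Figure D5:**
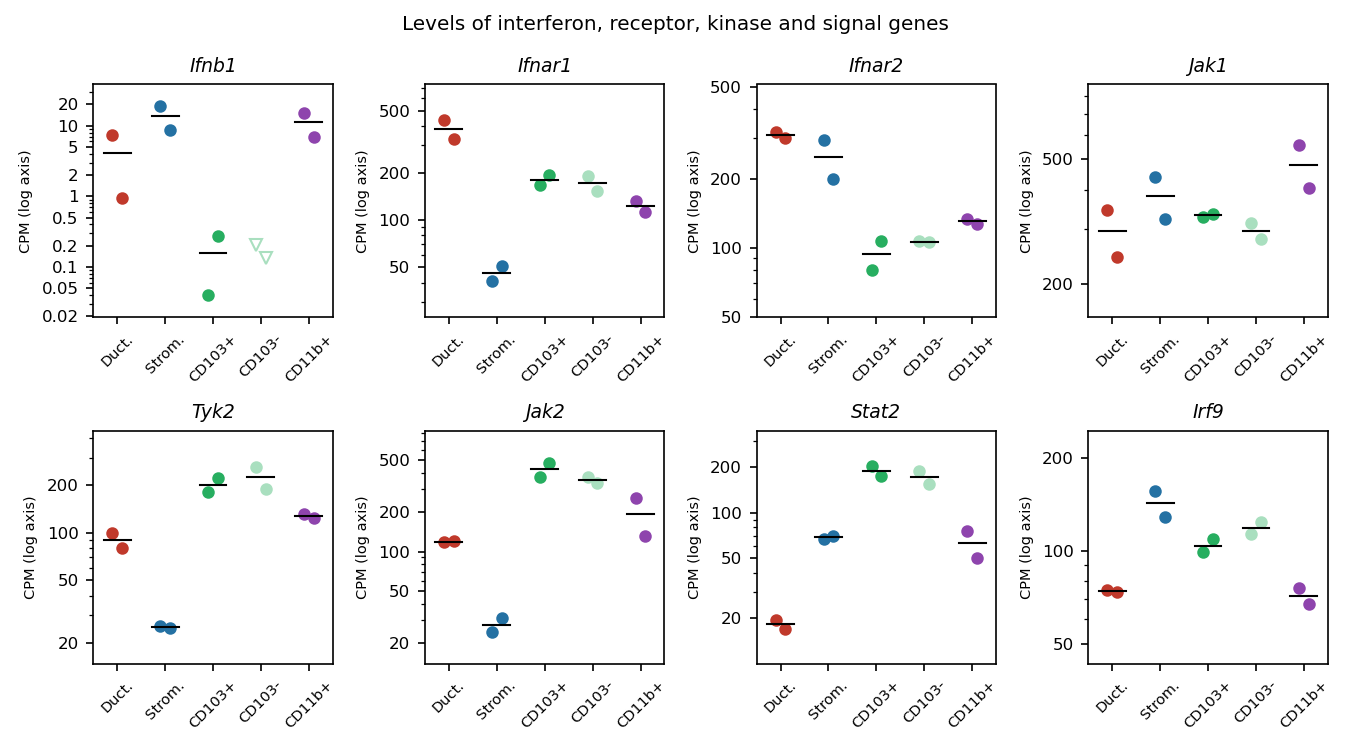
CPM (log axis) of the interferon beta gene, both receptor chains, 3 kinases, Stat2 and Irf9 in each library, with the populations and symbols of the plot of 12 members. Open triangles mark the CD103- libraries with no Ifnb1 count at the CPM of 3 counts; Ifnar1, Tyk2 and Jak2 are lowest in the stromal libraries, and Stat2 is lowest in the ductal libraries.

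A list of 45 further interferon-stimulated genes outside the 44 was measured beside them. In ductal against stromal macrophages 27 of the 45 were lower (background 14.3%), 2 higher (Rnf213 and Uba7; background 16.3%) and 16 not called, with a median log2 difference of -1.07 (-2.43 for the 44 members). Slfn1, a member of the Schlafen family, had 2 counts in ductal and 3605 in stromal macrophages, a ratio of 492 (95% counting interval 136 to 4066). Ddx60, a helicase that aids RIG-I, had 9.34 and 6.62 CPM in ductal and 214 and 109 in stromal macrophages. The 16 genes known best as targets of interferon gamma, of which Irf1 is also a member, had 3 higher (Ciita, Cd274 and Nlrc5), 4 lower (Irgm1, Igtp, Iigp1 and Irf1) and 9 not called, against a background of 16.3% higher and 14.3% lower. Ciita, the master regulator of MHC class II genes, had 139 and 115 CPM in ductal and 26.7 and 22.8 in stromal macrophages, the reverse of the members' order.

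Other features of the libraries moved with the members and are given as measured. Of 17 early-response genes known to rise during tissue dissociation, 13 were lower in ductal than in stromal macrophages (background 14.3%) and 4 were not called. Their sum was 13386 and 13238 CPM in ductal, 43623 and 31288 in stromal macrophages and 24601 and 20838 in CD11b+ DCs. The part of these genes, and of the high mitochondrial share of the stromal libraries, in the stromal level of interferon-stimulated genes was not tested. With mitochondrial genes removed before scaling, which changes only the scale and the genes tested, 38 members were called lower in ductal macrophages. Plasmacytoid dendritic cells are strong interferon producers, and their 8 markers summed to 309 and 321 CPM in ductal, 406 and 276 in stromal macrophages and 189 and 195 in CD103+ DCs, but Spib, Klk1 and Pacsin1 had no count in any macrophage library. Siglech, at 219 and 189.9 CPM in ductal and 104 and 36.9 in stromal macrophages, and Tcf4, at 75.4 and 94.95 CPM in ductal and 265 and 194 in stromal macrophages, made up most of those sums. Neutrophil markers, 8 genes of which 3 had no count anywhere, summed to at most 30.3 CPM. Epithelial markers (6 genes) summed to 207 and 362 CPM in ductal and 757 and 1725 in stromal macrophages. Fibroblast markers (6 genes) summed to 415 and 1213 CPM in ductal and 1170.2 and 1598 in stromal macrophages. Adipocyte markers (6 genes) summed to 306 and 512 and 599.7 and 743 CPM, and the type 1 dendritic cell markers to 1061 and 1004 and 183 and 152, in ductal and in stromal macrophages. The part of these cells in the members' levels was not tested.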

How the data were processed

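RNA from freshly sorted cells was made into TruSeq libraries, per the labels' protocols. The authors deposited whole-number counts per gene, made with featureCounts on mm10 per the submitters' processing notes; the version, aligner, annotation and use of strand stand in none of the sources used here. Gene IDs were matched to RefSeq symbols for 25275 of 27179 genes. Genes passing filterByExpr (minimum count 10, minimum total 15) in edgeR 4.0.16 (R 4.3.3) were scaled by TMM and fitted by population with the quasi-likelihood test and 5 residual degrees of freedom. A call against every other population used the largest of 4 pairwise p-values with agreeing signs, then Benjamini-Hochberg adjustment. SE is the fold change divided by the square root of F. Intervals cover counting error only. The labels do not say that replicates came from separate mice, so p-values measure the spread between these libraries. The fit was also run on simulated counts that gave every gene the same dispersion, so that run does not describe the spread of these libraries.

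The 44 members and the gene lists were chosen with earlier results of these data known. Tests are printed for up to 2 called members of each role with the largest ductal to stromal change (at least 10 CPM in 1 of both), members called against the majority, and the 3 largest per direction in other comparisons. Dhx58, Eif2ak2, Ifi35, Epsti1, Ifit1, Ifitm3, Ifnb1, Jak1, Tlr4 and Ikbke were added after their values were seen. Adjusted p-values of calls gained or lost under an alternative are also printed for members outside this rule, among them Xaf1, Herc6, Oas3, Oasl1 and Oas1a. Alternatives were DESeq2 1.42.0, DESeq2-style (RLE) size factors, no filter, no mitochondrial genes, a replicate block and leaving out each library.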

Additional observations from a re-analysis of the deposited data

How the results depend on the processing

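Every alternative kept the direction of the 123 called fold changes of the members picked by the rule above. Of 1845 alternative values 1749 kept the call, 96 lost it and 0 reversed. Members outside that rule are not counted here, though lost calls are printed above for some of them, such as Dhx58, Herc6 and Ifit1. Most of these members were picked for large changes among the called, so the counts do not describe all called members. DESeq2 called 2 members higher in ductal than in stromal macrophages (1 in the edgeR fit). It called 1 higher in CD103+ than in CD103- DCs, as did edgeR with no filter (1, against 0 with the filter). The median member level of CD103+ DCs on the log2(CPM + 0.5) scale was 4.83 with RLE size factors and 4.94 without mitochondrial genes. With each library left out, members called ran from 7 to 18 (lower in ductal macrophages than the DC mean), 0 to 1 (higher in CD103+ than CD103- DCs), 2 to 8 (lower in CD11b+ than CD11b- DCs), 13 to 26 (higher in stromal macrophages than CD11b+ DCs), 2 to 4 (higher in ductal macrophages than CD11b+ DCs) and 2 to 5 (lower in ductal macrophages than all 4 others). Over all genes, DESeq2 called 119 higher and 31 lower and edgeR with no filter 106 and 44 between CD103+ and CD103- DCs, against 5 and 0; DESeq2 also called 614 and 294 against 396 and 185 for ductal macrophages against every other population, where no filter gave 281 lower, and 720 against 427 for genes lower in stromal macrophages than all 4 others. The cause of these differences was not tested. Deviations of libraries with the same replicate number correlated positively over all tested genes among ductal macrophages, stromal macrophages and CD11b+ DCs (0.102 to 0.126). They did so too between both CD11b- populations (0.177), but correlated negatively in all 6 pairs across these sets (-0.176 to -0.124). Equal numbers were therefore not taken as pairs over all populations. Pairing within each set was not tested, and a replicate block that treats the numbers alike in all populations does not test it. With that block 38 members were lower in ductal than in stromal macrophages, as without it. With it 5 (not 7) were lower in CD11b+ than in CD11b- DCs, and 4 (not 5) were lower in ductal macrophages than in all 4 others. With 2 libraries a group and 3 counts worth up to 0.683 CPM, levels under that value, such as Ifitm6, Trim30c and most interferon genes in ductal macrophages, were not measurable with precision.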
